A study of Mus musculus with 6 samples.

Results

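The RAS-RAF-MEK-ERK cascade is described here through 7 of its genes, which were picked out by gene symbol. They are the small GTPase genes Nras and Hras, the RAF kinase genes Araf and Braf, the MEK kinase genes Map2k1 and Map2k2, and the ERK kinase gene Mapk3. All 7 were found among the 51912 Ensembl genes of the deposited count table, and all 7 were among the 14889 genes with enough counts to test. Further RAS, RAF and ERK paralogues exist and are taken up below within a list of related genes. R1 mouse embryonic stem cells, an established line, had been kept in 2iLIF, a medium with inhibitors of MEK and of GSK3 together with the cytokine LIF, which holds the naive state. They were then given FGF2 at 100 ng/ml in N2B27, a serum-free medium, for 24 h in one group and for 48 h in the other, with 3 replicates in each group. No library of untreated cells, or of cells in N2B27 without FGF2, was analysed here. FGF2, the loss of the inhibitors and of LIF, and the time in culture therefore cannot be told apart.

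In this cascade a receptor that has bound its ligand, such as an FGF receptor, leads to loading of RAS with GTP at the membrane. Active RAS recruits RAF, which phosphorylates MEK, and MEK in turn phosphorylates ERK, which acts on kinases and transcription factors. In mouse embryonic stem cells this route is known for its part in the exit from naive pluripotency, and the MEK inhibitor of the naive medium blocks it. Activity is set by phosphorylation and GTP loading, which RNA levels do not measure. In RNA from whole cultures, fewer cells of a type and less RNA per cell cannot be told apart.

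Libraries held between 19574969 and 23133148 estimated counts, and the 7 genes together took between 11418 and 14172 of them. The embryonic stem cell markers Pou5f1 and Sox2 averaged 1111 and 402.8 CPM (counts scaled to each library's size, adjusted by TMM) at 24 h and 1058 and 311.6 CPM at 48 h. The 6 markers of this cell type that were examined summed to between 4384 and 4411 CPM at 24 h and between 2875 and 2962 CPM at 48 h. They did not move alike: 5 were called as lower at 48 h, some with larger falls than Sox2, and 1 as higher. Over all tested genes 62.8% were called. The 5 primitive endoderm markers summed to at most 10.6 CPM in any library and the 6 fibroblast markers to at most 6.02 CPM, with Postn at 0 in every library. The 4 neural markers summed to between 104.4 and 115.4 CPM at 24 h and between 129.9 and 138.5 CPM at 48 h. Of these Pax6, Sox1 and Neurod1 rose, and Tubb3, the most abundant, fell from 78.2 to 54.3 CPM. The part of these markers in the results below was not tested. Whether replicates came from separate cultures is not stated in the labels, so p-values measure only the spread between these samples, which may be technical.

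The 2 MEK genes, whose transcripts moved in opposite directions, are shown first by sequence. In the GENCODE M21 transcripts, Map2k1 and Map2k2 had 1182 and 1206 coding bases, of which 1178 could be aligned and 78.3% of those were identical. The longest run shared without a difference was 56 bases. The most alike stretch of 90 aligned bases covered coding bases 352 to 441 of Map2k1 and 364 to 453 of Map2k2, counted from the start codon. Only the 3 bases in capitals differ in it.
Map2k1: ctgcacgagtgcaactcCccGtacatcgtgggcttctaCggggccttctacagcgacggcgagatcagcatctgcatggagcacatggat
Map2k2: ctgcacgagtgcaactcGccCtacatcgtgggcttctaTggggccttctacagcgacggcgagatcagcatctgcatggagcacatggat
Nras and Hras were 75.9% identical over 569 aligned coding bases, with a longest shared run of 23 bases, and Araf and Braf were 66.6% identical over 1785, with a longest shared run of 17. RSEM divides reads that fit several genes between them, which can leave fractional counts. All 7 genes had whole-number counts in every library (within 0.001), and thus no sign of reads split with a paralogue.

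Promoters of 6 of the 7 genes were matched by symbol in RefSeq (build GRCm38.p6). Those of Braf, the member with the largest increase, and of the 2 MEK genes are shown from 250 to 31 bases before the RefSeq start, 5′ to 3′ along the gene. They lie at chr6:39725494-39725713 (minus strand), chr9:64253636-64253855 (minus strand) and chr10:81105665-81105884 (plus strand). Capitals mark matches to any of 5 motifs searched on both strands.
Braf: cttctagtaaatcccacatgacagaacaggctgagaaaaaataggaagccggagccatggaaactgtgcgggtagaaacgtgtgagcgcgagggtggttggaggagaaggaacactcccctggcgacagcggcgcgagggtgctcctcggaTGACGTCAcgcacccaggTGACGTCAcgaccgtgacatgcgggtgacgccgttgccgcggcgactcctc
Map2k1: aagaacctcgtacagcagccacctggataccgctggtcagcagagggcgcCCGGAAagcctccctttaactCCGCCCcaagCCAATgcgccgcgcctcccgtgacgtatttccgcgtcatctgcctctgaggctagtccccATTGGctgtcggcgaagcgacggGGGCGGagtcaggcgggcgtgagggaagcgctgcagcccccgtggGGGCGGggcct
Map2k2: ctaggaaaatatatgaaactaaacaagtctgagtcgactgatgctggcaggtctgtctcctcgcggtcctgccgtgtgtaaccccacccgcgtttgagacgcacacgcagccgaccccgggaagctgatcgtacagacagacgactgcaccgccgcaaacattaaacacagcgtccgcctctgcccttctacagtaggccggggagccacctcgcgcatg
The motifs were the cyclic AMP response element TGACGTCA, the CCAAT box CCAAT, the GC box GGGCGG, the ETS core CCGGAA and the NRF1 site, chosen after the promoters had been read. The Braf window held the cyclic AMP response element 2 times, at 99 and 81 bases before the start, and no other motif. Of 32851 RefSeq promoter windows of 220 bases, 1.14% held that element at least once. The Map2k1 window held 3 GC boxes, 2 CCAAT boxes and 1 ETS core, motifs found in 28.5%, 31.01% and 9.47% of all windows. The Map2k2 window held none of the 5. The Hras window held 1 CCAAT box, 1 GC box and 1 ETS core, the Araf window 2 CCAAT boxes and 1 ETS core, and the Nras window 2 overlapping GC boxes. These matches describe letters in a window and were not tied to binding.

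The 48 h libraries were set against the 24 h libraries to ask whether the transcripts of the cascade itself differ between these times. Of the 7 genes, 6 changed at an adjusted p under 0.05, 5 of them upward and 1 downward. Braf rose most, by 53.1%, and Map2k1 was the member that fell, by 23.5%. Mapk3, Hras, Map2k2 and Nras rose by 26.2%, 16.1%, 13.0% and 9.55%. Araf did not pass the test. Over all 14889 tested genes, 62.8% were called, 30.9% as higher and 31.9% as lower at 48 h, and with 7 genes the 6 calls cannot be set apart from that share. The median log2 fold change of the 7 was 0.18, against -0.01 over all tested genes, and the median size was 0.22 against 0.26. The 7 averaged between 39.4 and 176.8 CPM over the libraries, against a median of 18.3 CPM over all tested genes. These comparisons were not matched for level. For 6 of the 7 the libraries of the 2 times were fully apart in CPM, against 66.9% of all tested genes.

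**Figure D1:**
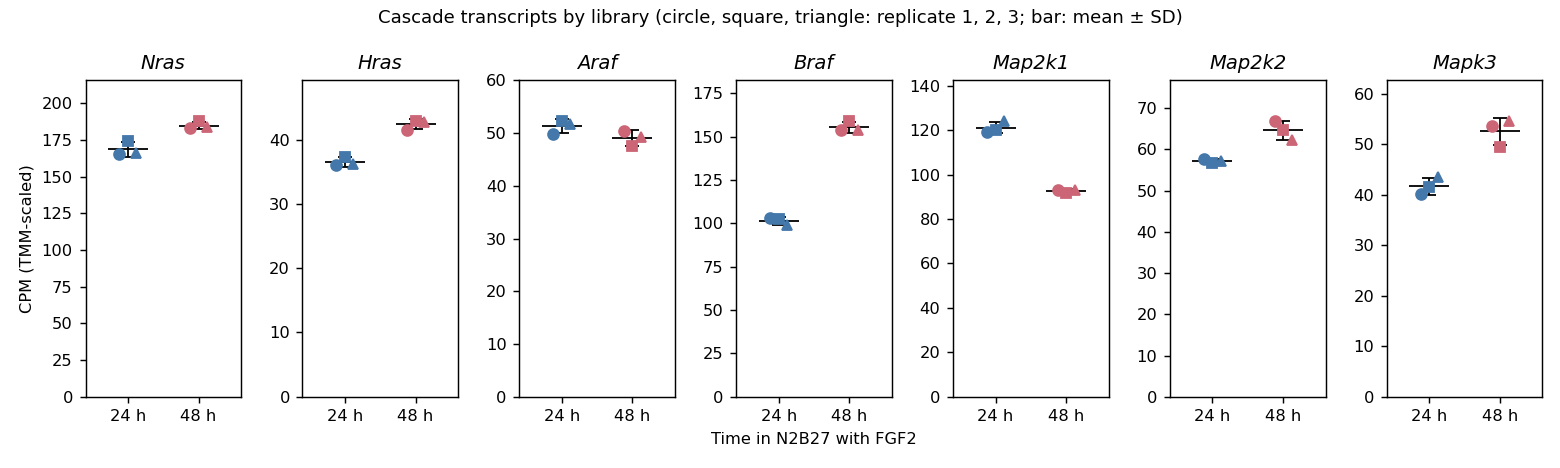
CPM (TMM-scaled, linear axes from 0, a separate axis for each gene) of the 7 cascade genes in the 3 libraries at 24 h (blue) and the 3 at 48 h (red), with bars for the mean ± SD. The groups are apart for every gene but Araf, and Map2k1 is the gene with lower values at 48 h in all 3 libraries.

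**Figure D2:**
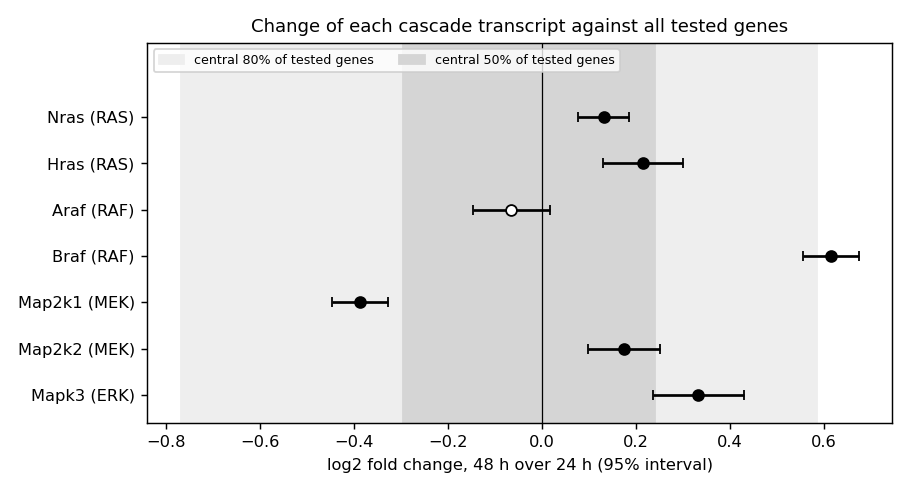
Log2 fold change, 48 h over 24 h, of each cascade gene with its 95% interval, over bands that hold the central 50% and 80% of the 14889 tested genes. Filled points passed an adjusted p under 0.05. Braf, at 0.62, lies above the 90th percentile of all fold changes (0.59), and Map2k1, at -0.39, lies below the 25th percentile (-0.30).

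At the RAS tier, both members rose by a small amount. Nras (ENSMUSG00000027852, chromosome 3, 103058285 to 103067914, plus strand, GRCm38) encodes a membrane-bound GTPase and was the most abundant of the 7 in CPM at both times. Its levels were 165.3, 174.5 and 166.5 CPM at 24 h and 183.0, 187.9 and 183.8 CPM at 48 h. The lowest 48 h library lay above the highest 24 h library. On the log2 scale the increase was 0.13 (standard error 0.03, adjusted p = 0.000277). Scaling by library size alone gave 0.07 (adjusted p = 0.0223), and the median over all genes moved from -0.01 to -0.07.

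Hras (ENSMUSG00000025499, chromosome 7, 141189105 to 141194005, minus strand) encodes a closely related GTPase. It measured 36.0, 37.4 and 36.1 CPM at 24 h and 41.5, 42.9 and 42.8 CPM at 48 h. All 48 h libraries were above all 24 h libraries. This was a log2 increase of 0.22 (standard error 0.04, adjusted p = 0.000184). With an offset for GC content and exon length its fold change was 0.36 (adjusted p = 9.31e-07), where the GC content of its transcripts was 57.6%.

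At the RAF tier the 2 members parted. Braf (ENSMUSG00000002413, chromosome 6, 39603237 to 39725463, minus strand) encodes the RAF kinase with the highest basal activity. Its levels were 103.3, 102.3 and 98.8 CPM at 24 h and 153.6, 159.0 and 153.6 CPM at 48 h. The spread within either time was a small part of the step between them, with SDs of 2.39 and 3.11 CPM around means of 101.5 and 155.4 CPM (n = 3 each). Between the times Braf rose by 0.62 in log2 units (standard error 0.03; 95% interval 0.56 to 0.67; adjusted p = 7.27e-12), larger in size than that of 77.5% of tested genes. With the GC and length offset the log2 increase of Braf was 0.44. Exons of Braf share 146 bases, 1.05% of its merged exon length, with the gene Ndufb2 on the opposite strand. Whether counting used strand is not given in the sources used here. Ndufb2 itself had a log2 fold change of -0.10 (adjusted p = 0.155).

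Araf (ENSMUSG00000001127, chromosome X, 20797814 to 20860519, plus strand) encodes another RAF kinase. It measured 49.8, 52.3 and 51.8 CPM at 24 h and 50.4, 47.5 and 49.3 CPM at 48 h. The values of the groups overlapped, since the first 48 h library lay above the lowest 24 h library. Its log2 fold change was -0.06 with a 95% interval from -0.15 to 0.02 (adjusted p = 0.159), so a change of the size seen for Braf lies outside the interval. Scaled by library size alone, Araf was called as lower (-0.13, adjusted p = 0.0105), and with the GC and length offset its value was 0.01 (adjusted p = 0.90). Exons of Araf share 9 bases with Syn1 on the opposite strand.

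At the MEK tier the members moved in opposite directions. Map2k1 (ENSMUSG00000004936, chromosome 9, 64185770 to 64253631, minus strand) encodes MEK1, a dual-specificity kinase that phosphorylates ERK. Its levels were 119.3, 120.0 and 124.0 CPM at 24 h and 93.0, 91.9 and 93.1 CPM at 48 h. Every 48 h library was below every 24 h library. Its fold change on the log2 scale was -0.39 (standard error 0.03; 95% interval -0.45 to -0.33; adjusted p = 3.18e-09). Over the other fits tried, the log2 fold change of Map2k1 ranged from -0.45 to -0.29. GENCODE M21 places no antisense exon over this gene.

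Map2k2 (ENSMUSG00000035027, chromosome 10, 81105915 to 81133975, plus strand) encodes MEK2, which has the same substrates. It measured 57.7, 56.6 and 57.2 CPM at 24 h and 66.8, 64.8 and 62.2 CPM at 48 h. The 48 h libraries were all higher, with a wider spread (SD 2.34 CPM) than the 24 h libraries (0.566 CPM). The log2 increase was 0.18 (standard error 0.04, adjusted p = 0.000501). It was 0.12 (adjusted p = 0.0123) when libraries were scaled by size alone and 0.34 (adjusted p = 2.87e-07) with the GC and length offset, where the GC content of its transcripts was 58.5%.

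At the ERK tier, Mapk3 (ENSMUSG00000063065, chromosome 7, 126759601 to 126765819, plus strand) encodes ERK1, the kinase at the end of the cascade. Its levels were 40.0, 41.5 and 43.5 CPM at 24 h and 53.6, 49.5 and 54.6 CPM at 48 h. The groups were apart, and the 48 h spread was the largest of the 7 genes relative to its mean (5.13%). The difference was 0.33 in log2 units (standard error 0.05, adjusted p = 8.29e-06). With the GC and length offset it was 0.51 (adjusted p = 7.35e-08), and the GC content of its transcripts was 56.7%.

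The depth behind these values was between 720 counts, for Hras in a 24 h library, and 4111 counts, for Nras in a 48 h library. Counting error alone would give coefficients of variation between 1.57% and 3.58% for the 7 genes. The observed coefficients lay between 0.713% and 5.13%. Some were below counting error, as for Hras at 24 h (1.99% against 3.58%) and Map2k1 at 48 h (0.713% against 2.22%). Others were above it, as for Mapk3 at 48 h (5.13% against 2.95%). In the former cases the replicates showed no spread beyond counting.

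The balance within a tier was then compared inside each library, where library size and any factor shared by all genes cancel but effects of GC content and length do not. The ratio of Map2k1 to Map2k2 counts was 2.07, 2.12 and 2.17 in the 24 h libraries and 1.39, 1.42 and 1.497 in the 48 h libraries. The mean log2 ratio moved from 1.08 ± 0.03 to 0.52 ± 0.05 (SD, n = 3 each), a difference of -0.56. Map2k1 took 67.9% ± 0.517 of the reads of the pair at 24 h and 58.9% ± 0.919 at 48 h (SD, n = 3). In single libraries the lowest 24 h share was 67.4% (95% Wilson interval 65.8% to 68.9%) and the highest 48 h share was 59.95% (58.3% to 61.6%). These intervals cover counting error only. The summed level of the pair was 178.3 ± 2.58 CPM at 24 h and 157.2 ± 2.35 CPM at 48 h, a difference of -11.8%, without overlap between the groups.

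The ratio of Araf to Braf was 0.482, 0.511 and 0.524 at 24 h and 0.328, 0.299 and 0.321 at 48 h. The difference in the mean log2 ratio was -0.68, from -0.98 ± 0.06 to -1.66 ± 0.07 (SD, n = 3). The summed level of the 2 RAF genes was 152.8 ± 2.05 CPM at 24 h and 204.4 ± 1.82 CPM at 48 h, 33.8% higher. The ratio of Nras to Hras was 4.59, 4.67 and 4.60 at 24 h and 4.41, 4.38 and 4.30 at 48 h, a difference of -0.08 in the mean log2 ratio. The shift of the RAS pair was the smallest of the 3, and the shifts were toward Hras, Braf and Map2k2. With the GC and length offset the difference was -0.25 for Nras to Hras, -0.43 for Araf to Braf and -0.63 for Map2k1 to Map2k2. Under that offset the MEK pair and not the RAF pair shifted most, and the groups still did not overlap. The offset also takes out any difference between the times that follows GC content or length, whether technical or not. For each of the 3 ratios the groups did not overlap, and the two-sided exact permutation test gave p = 0.1 (0.1 after adjustment over the 3 ratios), the smallest value that 3 against 3 libraries allow.

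**Figure D3:**
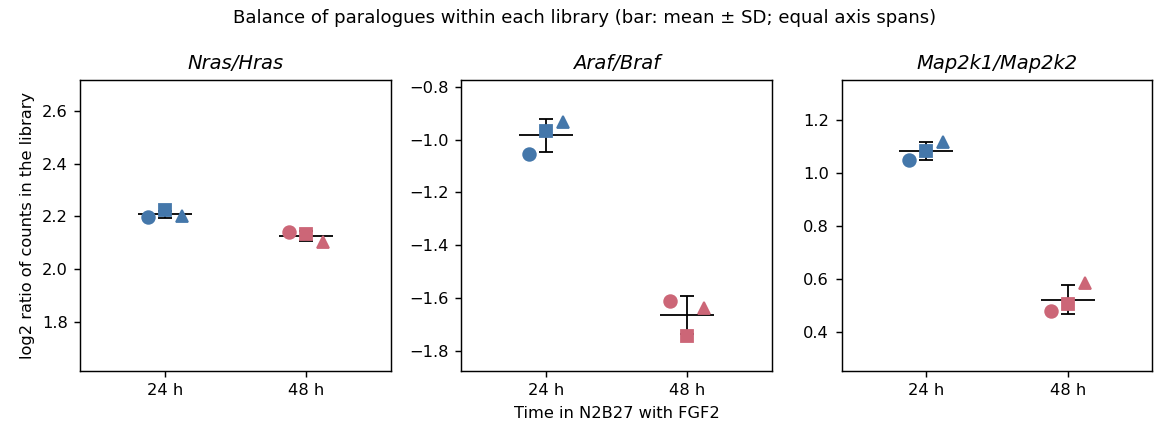
Log2 ratio of the counts of 2 paralogues within each library at 24 h (blue) and 48 h (red), on axes of equal span, with bars for the mean ± SD (n = 3). The ratio of Nras to Hras differs by 0.08 between the times, while those of Araf to Braf and of Map2k1 to Map2k2 differ by 0.68 and 0.56, each lower at 48 h.

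Levels of different genes were compared per kilobase of the longest coding transcript in GENCODE M21. At 24 h the order was Map2k1 with 49.7 ± 1.05 CPM per kilobase (SD, n = 3), Nras with 37.8 ± 1.12, Map2k2 with 23.8 ± 0.235, Mapk3 with 23.15 ± 0.958, Araf with 17.97 ± 0.46, Hras with 12.9 ± 0.257 and Braf with 10.4 ± 0.246. Map2k2 and Mapk3 were neighbours whose libraries overlapped on this length, while over merged exons Mapk3 (18.5 CPM per kilobase) stood above Map2k2 (10.1). At 48 h Nras came first with 41.4 ± 0.594, above Map2k1 with 38.0 ± 0.271, and Mapk3 with 29.2 ± 1.499 stood beside Map2k2 with 26.9 ± 0.974, whose highest library (27.8) lay above the lowest of Mapk3 (27.5). Araf had 17.2 ± 0.509, Braf 15.97 ± 0.319 and Hras 14.99 ± 0.266 CPM per kilobase. Braf thus moved from the lowest level per kilobase at 24 h to above Hras at 48 h. The place of Braf rests on a long annotated transcript of 9728 bases. Over merged exons in place of the longest transcript, Araf was the lowest at 48 h with 7.501, below Braf with 11.2 and Hras with 11.4, while Map2k1 and Nras stayed the highest at both times.

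For likeness, genes of at least 20 CPM were ranked by the root-mean-square difference of their centred log2 CPM from a member over the 6 libraries. Among 7150 genes, those near to Braf included Pla2g6 and Jmjd1c, with differences of 0.00700 and 0.00948 on the log2 scale. Those nearest to Map2k1 were Vps41, Sox2 and Trim8, with 0.0128, 0.0138 and 0.0140. Sox2, a pluripotency transcription factor, had a log2 fold change of -0.37 beside the -0.39 of Map2k1. With 2 groups of libraries, likeness of this kind mainly matches the size of the step between them.

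The genes around the cascade were described from 6 lists of related genes together with a list of parallel MAP kinases. The 7 lists hold 80 genes, of which 78 were tested and 58 (74.4%) were called, 29 upward and 29 downward, against 62.8% of all tested genes. Their median log2 fold change was 0.00 and the median size was 0.23. Under scaling by library size alone the split was 22 upward of 56 called. Counts for single lists below stand beside the same share over all tested genes, 30.9% called as higher and 31.9% as lower. No list was tested as a set.

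Among the other RAS, RAF and ERK genes, 3 of 6 rose and 2 fell. The change of Mras, a RAS relative that can activate RAF together with SHOC2 and a phosphatase, was far larger than that of any of the 7 members. Mras counts were 890, 963 and 1185 in the 24 h libraries and 103, 83 and 118 in the 48 h libraries. Mean CPM was 47.3 ± 2.84 at 24 h and 4.62 ± 0.772 at 48 h (SD, n = 3), which is -3.36 in log2 units (standard error 0.08, adjusted p = 4.12e-15), larger in size than that of 99.4% of tested genes. Rras2, another RAS relative, rose from 35.0 ± 0.943 to 44.5 ± 0.135 CPM, by 0.35 in log2 units (adjusted p = 1.02e-06).

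Of the 12 tested adaptors and RAS exchange factors, which couple receptors to RAS, 4 rose and 5 fell, with a median of 0.03. Gab1, an adaptor that binds the phosphatase SHP2, rose from 506.3 ± 8.13 to 630.7 ± 8.13 CPM, by 0.32 in log2 units (adjusted p = 1.31e-10), and Sos2, an exchange factor, fell from 18.4 ± 1.29 to 15.5 ± 0.942 CPM (-0.25, adjusted p = 0.00908). Of the 9 tested RAS GTPase-activating proteins, which return RAS to its inactive state, 5 rose and 3 fell, with a median of 0.11. Rasa4 fell from 16.3 ± 1.14 to 10.9 ± 0.676 CPM (-0.58 in log2 units, adjusted p = 1.15e-05). With the GC and length offset 4 genes of that list were called in place of 8. Of the 11 genes for lipid processing and trafficking of RAS, Zdhhc9, which encodes a palmitoyltransferase, rose (0.51), 4 fell, and 6 did not pass the test, with a median of -0.04. Abhd17b, which encodes a depalmitoylating enzyme, had the largest decrease in that list among called genes of at least 5 CPM (-0.27, or -0.46 with the offset).

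Of the 17 RAF regulators and cascade scaffolds, 8 rose and 3 fell, with a median of 0.05. Pea15a, which encodes a protein that binds ERK and keeps it in the cytoplasm, rose from 7.62 ± 0.329 to 15.2 ± 0.963 CPM (SD over 3 libraries), by 0.9995 in log2 units (adjusted p = 2.62e-08). Ksr1, a scaffold that holds RAF, MEK and ERK together, fell from 14.5 ± 1.08 to 7.57 ± 0.757 CPM (-0.94, adjusted p = 1.95e-07). Of the 10 kinases and factors downstream of ERK, 2 rose and 7 fell, with a median of -0.17. Rps6ka5, which encodes the kinase MSK1, rose by 0.46, and Elk3, an ETS factor regulated by ERK, fell from 14.4 ± 1.88 to 6.15 ± 0.623 CPM (-1.22, adjusted p = 4.67e-08). Exons of Gab1, Rasa4, Pea15a, Ksr1 and Elk3 overlap exons of an antisense gene, whose reads cannot be told apart from theirs without strand.

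**Figure D4:**
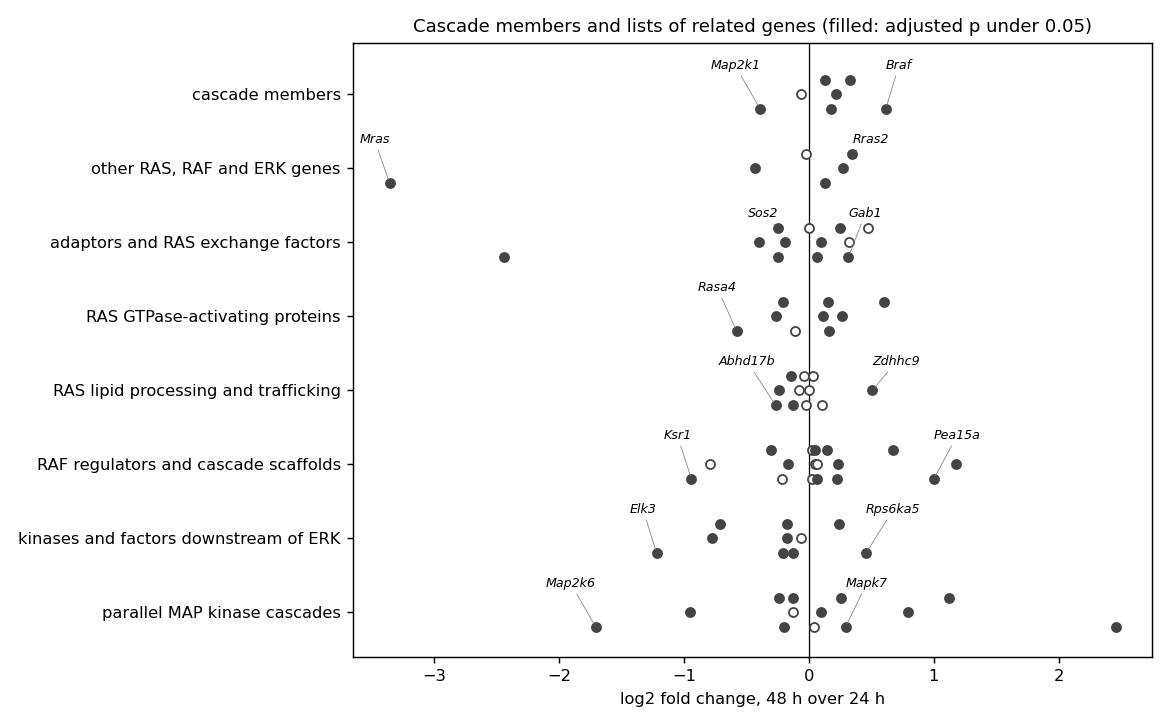
Log2 fold change, 48 h over 24 h, of the 7 cascade genes and of the tested genes of 7 lists, 1 point per gene, spread vertically only for legibility. Filled points passed an adjusted p under 0.05, and labels mark the genes the text names by rule, together with Braf and Map2k1. The members lie between -0.39 and 0.62, and Mras lies at -3.36.

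**Figure D5:**
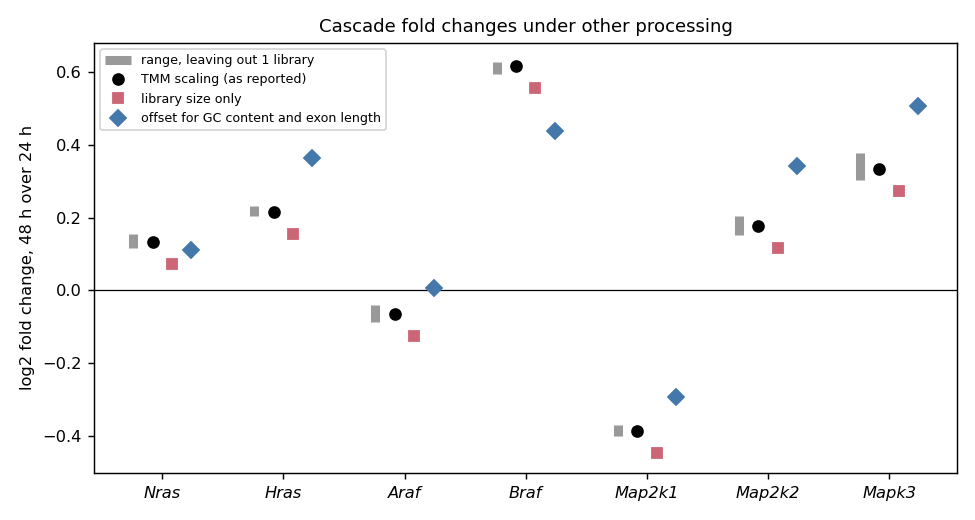
Log2 fold change, 48 h over 24 h, of each cascade gene as reported (black), with library size as the only scaling (red), with an offset for GC content and exon length (blue), and the range over the fits that leave out 1 library (grey bar). Every member keeps its direction except Araf, which lies at -0.06 as reported and at 0.01 with the offset.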

How the data were processed

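Libraries made from total RNA with a KAPA mRNA HyperPrep kit, per the labels, were compared for 6 samples, 3 at 24 h and 3 at 48 h. Values in the table deposited by the authors are estimated counts from RSEM for each Ensembl gene, not scaled for depth or gene length. Per the submitters' processing notes, cutadapt 1.9.1, STAR 2.5.2, RSEM 1.3.0 and the build GRCm38 were used. The annotation release, strand setting and filters are not given in the sources used here. Each of the 6 columns was identical to 1 sample title. Gene symbols, positions and lengths came from GENCODE M21 (GRCm38), which matched 51633 identifiers.

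Counts were rounded, filtered with edgeR's filterByExpr (minimum count 10), scaled by TMM and compared with edgeR's quasi-likelihood test (edgeR 4.0.16 in R 4.3.3). The model held the group alone, with Benjamini-Hochberg adjustment over all 14889 tested genes (threshold 0.05). Standard errors were taken as the absolute fold change over the root of the F statistic. Ratios of paralogues were tested with an exact permutation test (scipy 1.17.1). On simulated counts of this comparison (14889 genes), each size of change was given to 50 genes. The test recovered 44% of those changed by 0.25, 58% by 0.5 and 86% by 1 on the log2 scale. In all, 148 genes were called in the simulation, against 9345 in the data. The shares are taken over all tested genes in that setting and are not the sensitivity for the cascade genes.

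The members, the lists and the rules were chosen with earlier results of these data known. All 7 members are named, and from each list the called genes of at least 5 CPM with the largest increase and decrease. Some genes that these rules pick are not reported here by name but count in all totals. Other settings tried were 3 scalings (RLE, upper quartile, library size alone), 2 filters, DESeq2 1.42.0, limma voom (3.58.1), unrounded counts, a replicate block, a threshold of 0.01 and leaving out each library. An offset for GC content and exon length (loess per library) was chosen after seeing the data. It was fitted to log2 CPM centred on each gene's mean over all 6 libraries. It therefore takes out any difference between the times that follows GC content or length, whether technical or not.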

Additional observations from a re-analysis of the deposited data

How the results depend on the processing

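The 6 calls among the cascade genes and their directions held in all 16 other fits and at the threshold of 0.01, where 6 members were called in each, except with library size as the only scaling, which called 7 by adding Araf. Of the values of single members under the alternatives, 110 kept direction and call. The 2 that did not were those of Araf, -0.13 (adjusted p = 0.0105) with library size only and 0.00627 (adjusted p = 0.90) with the offset for GC content and exon length. That offset also moved values from 0.22 to 0.36 for Hras, 0.18 to 0.34 for Map2k2, 0.33 to 0.51 for Mapk3 and 0.62 to 0.44 for Braf, and the cause was not tested. For Map2k1 the values ranged from -0.45 to -0.29 over all other fits and from -0.40 to -0.37 over those without 1 library. The RAS GTPase-activating list had 4 calls with the offset against 8. The number of genes called over the whole table ranged from 7810 to 9792. Across the fits without 1 library, the difference in log2 ratio ranged from -0.71 to -0.64 for Araf to Braf, from -0.59 to -0.54 for Map2k1 to Map2k2 and from -0.09 to -0.07 for Nras to Hras. The offset, added after seeing the data, gave -0.43, -0.63 and -0.25 for these ratios in the same order. With the replicate block 6 members and 59 genes of the lists (58 without it) were called. Pairing the 3 ratios by replicate number leaves their mean differences unchanged by arithmetic. An exact permutation test of the pairs gave p = 0.25 for each ratio, the smallest that 3 pairs allow. Libraries of one number did not deviate together (correlations of -0.05, -0.04 and -0.01 across genes), and the replicate numbers were not taken as pairs. All 288 values of the other named genes kept direction and call. In the simulation over all genes 44% of changes of 0.25 were recovered. There 148 genes were called, against 9345 in the data, so that share cannot be read as the sensitivity for Araf. The confidence interval of Araf ran from -0.15 to 0.02 on the log2 scale. A small change within that interval may lie under what this design detects.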

Other observations

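The parallel MAP kinase cascades, which carry stress signals through p38 and JNK and growth signals through ERK5, were measured in the same libraries. Of 13 listed genes, 6 rose, 5 fell and 2 did not pass the test in edgeR's quasi-likelihood fit, with a median log2 fold change of 0.04. Over all tested genes 62.8% were called, 30.9% as higher and 31.9% as lower at 48 h. The counts of this list were not tested against those shares. Map2k6, which encodes an activator of p38, fell from 21.6 ± 0.574 to 6.62 ± 0.679 CPM (SD over 3 libraries), which is -1.70 in log2 units (standard error 0.08, adjusted p = 2.33e-11). Mapk7, which encodes ERK5, rose from 48.3 ± 1.63 to 59.2 ± 1.38 CPM, by 0.29 in log2 units (adjusted p = 4.73e-06) and by 0.45 with the offset for GC content and exon length. Its exons overlap those of Mfap4 on the opposite strand. The fall of Map2k6 was larger in size than the change of any of the 7 cascade genes.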
